A study of Mus musculus with 15 samples.

Results

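Collagen genes encode the chains of the collagens, the main structural proteins of the extracellular matrix. They were taken here as every gene whose symbol is Col, a number, the letter a and another number. This gave 36 of the 20910 genes counted in cultured mouse cells of the retinal pigment epithelium (RPE) and 43 of the 25038 genes counted in mouse RPE/choroid tissue. Together these are 44 genes, and 35 of them were counted in both tables. *Col6a4* had counts only in the cell table, and *Col6a5*, *Col9a1*, *Col9a2*, *Col13a1*, *Col19a1*, *Col22a1*, *Col25a1* and *Col26a1* only in the tissue table. Each of the 36 and 43 genes passed the filter on low counts, which asks for at least 5 counts in at least 3 of the libraries compared. By the structure their proteins build, 11 are fibrillar in both tables and 6 form basement membrane networks in both. The fibril-associated collagens with interrupted helices (FACIT) numbered 5 in the cells and 9 in the tissue.

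Collagen chains wind around each other into a rope-like helix inside the cell, after enzymes of the endoplasmic reticulum have hydroxylated them and chaperones have helped them fold. The molecules are then exported, trimmed at their ends, assembled and crosslinked outside the cell. The RPE rests on Bruch's membrane, in which basement membranes rich in type IV collagen lie on either side of layers that hold fibrillar collagens. Fibroblasts, pericytes and vessels of the choroid make collagens of their own, so a piece of RPE/choroid carries collagen transcripts of several cell types.

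The study removed *Prom1*, the gene of the membrane protein Prominin-1, to learn what it does in the RPE. The cultured cells (mRPE) came from RPE of C57/BL6J mice that were pooled and immortalized with lentiviral HPV E6/E7, and were sequenced as 4 libraries of WT cells, 3 of the Prom1-KO clone KO22 and 2 of the Prom1-KO clone KO26. For the knockout, mRPE cells received a lentiviral Cas9 construct with polybrene, were selected with puromycin and were transfected with a synthetic guide against exon 5 of *Prom1*. Each knockout is thus 1 clone, so the knockout and what is particular to a clone cannot be told apart, and the sources used here do not say whether the sequenced WT cells carried Cas9. The RPE/choroid libraries were 3 of WT mice and 3 of mice labelled Prom1-KO, made by crossing Prom1fl/fl mice with RPE65-Cre mice and giving tamoxifen by gavage, so that the deletion was meant for the RPE only. Whether the WT mice carried Cre or received tamoxifen is not given in the sources used here. The sample labels give the tissue as RPE, and the name RPE/choroid follows the series design. Whether each dissection held choroid was thus not checked by the labels. The authors describe their Prom1-KO lines as independent, with deletions at different sites of the gene, and the only guide they give is shown because it marks a site of the edit. Its sequence was found at 1 place on chromosome 5 of GRCm39, at chr5:44213310-44213329 on the minus strand, in coding sequence of exon 5 of *Prom1*. The adjoining PAM is in capitals.
Prom1 guide: cgttgctgcaacaaatgcggCGG

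Total counts came to 10187978 to 27537863 in WT mRPE, 11863633 to 20760399 in KO22, and 24175274 and 8076188 in KO26 replicates 1 and 2. In tissue they were 51742746 to 59625225 in WT and 48154444 to 61766179 in the libraries labelled Prom1-KO. The mRPE libraries were sequenced in 2 batches, and replicate 1 of each mRPE group is batch 1. Between WT mRPE libraries of batch 2, the chi-square per degree of freedom of the gene counts was 5.20 to 7.94, and against WT replicate 1 it was 65.4 to 86.6. All pairs therefore differed by more than sampling noise, and the batch entered the mRPE tests as a term. Among the tissue libraries, labelled Prom1-KO replicate 3 stood apart, with a chi-square per degree of freedom of 259 and 276 against replicates 1 and 2, which gave 17.8 between themselves. Pairs of WT tissue libraries gave 36.3 to 73.4. Mitochondrially encoded genes took 84.2% of the counts of labelled Prom1-KO replicate 3. They took 71.3% and 71.0% in labelled Prom1-KO replicates 1 and 2 and 64.9% to 69.1% in WT. Every library labelled Prom1-KO was thus above every WT library in this share. The authors call the mRPE replicates biological, but no source used here says that they were separate cultures, and the labels do not tie tissue libraries to animals, so p-values measure the spread between these libraries, which may be technical.

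*Prom1* itself could not check every label. It is not analysed here in the mRPE libraries, so their labels were not checked by it. In tissue, *Prom1* stood at 48.7, 49.6 and 53.3 CPM in WT replicates 1 to 3 and at 49.9, 48.1 and 35.5 CPM in the libraries labelled Prom1-KO, where CPM is the count scaled to library size and edgeR's TMM factors. Those groups overlapped, with a log2 fold change of -0.18 (SE 0.158, edgeR adjusted p = 0.824). The counts thus do not show the deletion, and the tissue libraries are called by their label throughout. The TMM factor was 0.488 for labelled Prom1-KO replicate 3 and 1.07 to 1.33 for the other tissue libraries. The same share of all counts therefore reads as a higher CPM in labelled Prom1-KO replicate 3 than in the others. The labelled cell type was checked against 15 RPE markers. In mRPE only *Best1*, *Rdh5*, *Pmel* and *Mitf* of these 15 were measured. Not analysed here in mRPE were the defining markers *Rpe65*, *Rlbp1*, *Ttr*, *Lrat*, *Rgr*, *Tyr*, *Tyrp1*, *Dct*, *Otx2*, *Krt8* and *Krt18*, so the check of these cells is partial. Summed over the 4 measured RPE markers, of which *Mitf* was the most abundant, WT mRPE held 11.8, 15.6, 17.4 and 16.7 CPM. Over 6 of 7 fibroblast markers, led by *Pdgfra*, the same libraries held 1674, 2730, 2991 and 2737 CPM. The cells are therefore called mRPE, the name of the culture. In WT tissue all 15 RPE markers were counted, with sums of 3645, 2672 and 3015 CPM.

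Collagen transcripts took a steady share of the WT mRPE counts and a smaller one in KO22. The share was 2.19%, 2.14%, 2.24% and 2.20% in WT replicates 1 to 4. It was 1.07%, 0.835% and 0.687% in KO22 replicates 1 to 3, and 2.54% and 3.20% in KO26. Every KO22 library lay below every WT library, and both KO26 libraries lay above them. In tissue the share was 0.0948%, 0.117% and 0.176% in WT and 0.0734%, 0.0715% and 0.0571% in the libraries labelled Prom1-KO. With mitochondrially encoded counts left out of the total, a choice made after seeing the data, the tissue shares were 0.288%, 0.379% and 0.502% in WT and 0.256%, 0.247% and 0.361% in the others, and the groups then overlapped. No test was made on these shares.

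Levels of different genes were compared per kilobase of the canonical transcript. In WT mRPE the highest were *Col1a2* at 1096 ± 156 CPM per kilobase (SD, n = 4), *Col1a1* at 695 ± 158 and *Col3a1* at 477 ± 127, the chains of types I and III collagen. *Col12a1*, a FACIT chain that binds along type I fibrils, followed at 305 ± 92.8 CPM per kilobase, and *Col6a1* at 186 ± 6.49. The means of *Col1a1* and *Col3a1* lay within the sum of their SDs, but *Col1a1* was above *Col3a1* in each WT library. *Col3a1* and *Col12a1* also lay within the sum of their SDs. In WT replicate 4 *Col12a1* was the higher of these 2, at 390 against 336.5 CPM per kilobase, so the order of *Col3a1* and *Col12a1* is not settled. In KO22 the 3 highest means lay within the sum of their SDs, with *Col3a1* at 364 ± 125 CPM per kilobase (SD, n = 3), *Col1a2* at 331 ± 39.9 and *Col1a1* at 258 ± 79.8, followed by *Col6a3* at 92.8 ± 6.61. *Col3a1* was above *Col1a2* in KO22 replicate 1 alone. In KO26 the order of the first 3 was that of WT, with *Col1a2* at 1550 ± 109 CPM per kilobase (SD, n = 2). Over the length of all exons joined, a choice made after seeing the data, *Col1a1* came first in each mRPE group and the same 5 genes stayed the highest.

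KO22 against WT asks what differed in the clone that the authors kept for their own comparison. In KO22, 14 of 36 collagen genes were lower than in WT and 3 were higher, by edgeR's quasi-likelihood test. The limits were a Benjamini-Hochberg adjusted p below 0.05, called edgeR adjusted p here, and a log2 fold change beyond 1.2 in either direction. The lower genes are 38.9% of the collagens, where 13.8% of all 20455 genes tested were lower. The higher genes are 8.33% of the collagens, where 11.4% of all genes tested were higher, so that share is near the background. Both chains of types I, VIII and XI were among the lower ones, as were *Col12a1*, *Col6a1* and *Col6a2*, and *Col7a1*, *Col15a1* and *Col6a4* were the higher ones. The median log2 fold change was -0.59 over the collagens and -0.03 over all genes tested, and 23 of the 36 values were negative. Without KO22 replicate 2 the collagen median was -1.05. Without the limit on the fold change, 6 collagens (16.7%) counted as higher and 19 (52.8%) as lower, beside 26.9% and 26.1% of all genes tested.

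**Figure D1:**
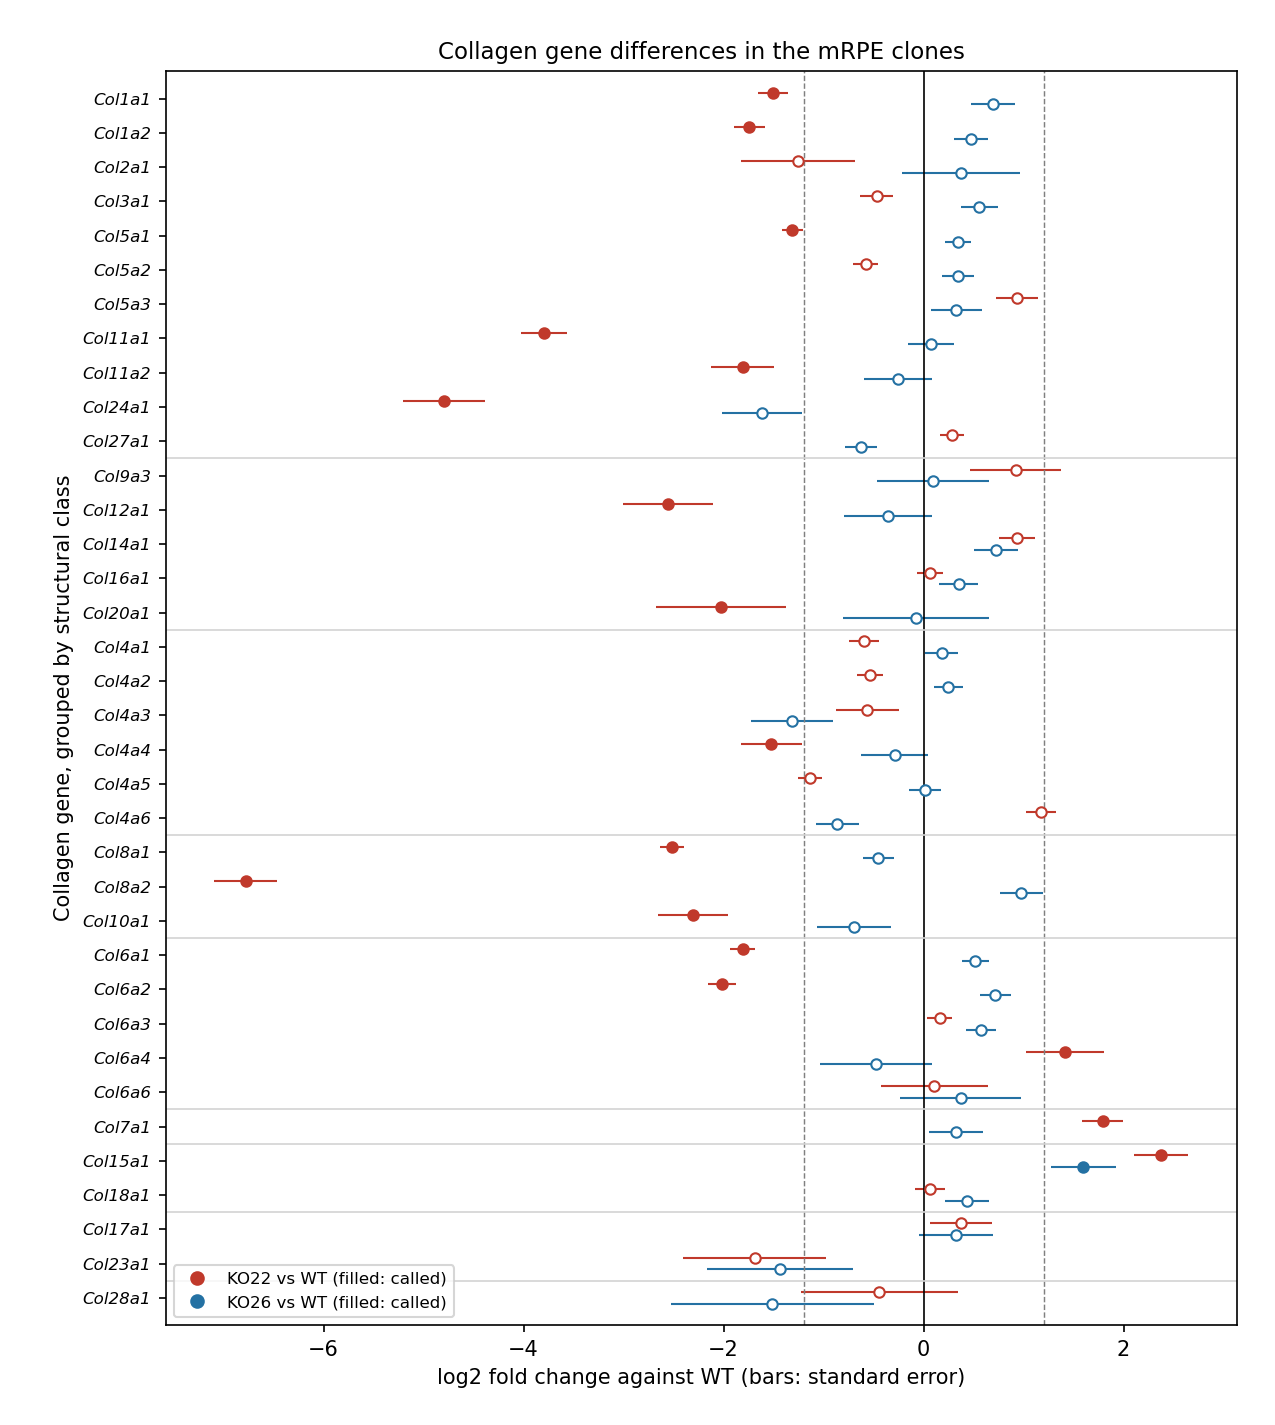
Log2 fold change of the 36 collagen genes against WT mRPE, by structural class, for KO22 (red) and KO26 (blue), with standard errors as bars. Filled points passed both limits and dashed lines mark a log2 fold change of 1.2 in either direction: 17 points are filled for KO22 and 1, Col15a1, for KO26.

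The fibrillar class held 6 of the lower genes among its 11, with a median log2 fold change of -1.31. *Col1a1*, a chain of type I collagen, stood at 5406, 3438, 4233 and 3399 CPM in WT replicates 1 to 4 and at 2059, 1380 and 1148 CPM in KO22 replicates 1 to 3. All KO22 libraries were below all WT libraries. The log2 fold change was -1.50 (SE 0.150, edgeR adjusted p = 3.97e-05). Within a batch, computed on CPM with 0.5 CPM added, the log2 ratio was -1.39 in batch 1, which has 1 library per group, and -1.54 in batch 2. *Col1a2*, its partner chain, measured 6956, 5296, 6106 and 5131 CPM in WT and 1901, 1899 and 1530 CPM in KO22, again with no overlap. Its log2 fold change was -1.74 (SE 0.152, edgeR adjusted p = 1.79e-05), and -1.87 and -1.69 within batches 1 and 2.

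*Col3a1*, the chain of type III collagen, did not fall with them by the same limits. It measured 3583, 2534, 2619 and 1872 CPM in WT and 2799, 1815 and 1461 CPM in KO22. The groups overlapped, with a log2 fold change of -0.47 (SE 0.161, edgeR adjusted p = 0.0336), short of the fold limit. Within batches 1 and 2 it was -0.36 and -0.51, and each KO22 library was below the WT libraries of its own batch. *Col5a1*, a chain of the type V collagen that lies inside type I fibrils and limits their width, was lower. It stood at 617, 507, 523 and 499 CPM in WT and at 272, 195 and 201 CPM in KO22. Those groups did not overlap, and the log2 fold change was -1.31 (SE 0.108, edgeR adjusted p = 1.31e-05), with -1.18 and -1.36 within batches 1 and 2. Its partner *Col5a2* had a smaller log2 fold change of -0.58.

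Type XI collagen nucleates thin fibrils, and *Col11a1* showed one of the widest gaps of the class. It measured 627, 326, 382 and 295 CPM in WT and 27.2, 33.0 and 25.8 CPM in KO22. Every WT library held several times the count rate of any KO22 library. Its log2 fold change was -3.80 (SE 0.232, edgeR adjusted p = 2.54e-06), and -4.50 and -3.49 within batches 1 and 2. *Col24a1*, a fibrillar chain known from bone and cornea, was at 15.8, 25.1, 23.3 and 24.2 CPM in WT and at 1.30, 0.868 and 0.155 CPM in KO22. The groups were far apart, with a log2 fold change of -4.80 (SE 0.409, edgeR adjusted p = 1.60e-05), and -3.18 and -4.70 within batches 1 and 2. *Col11a2* fell from a mean of 2.92 to 0.848 CPM, a log2 fold change of -1.81. Of the other fibrillar genes, *Col5a3* had 0.94 and *Col27a1* 0.29 as log2 fold change, both short of the fold limit, and *Col2a1*, near the detection limit at 0.558 CPM in WT, had -1.26 without passing the test.

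Among the 5 FACIT genes counted in mRPE, 2 were lower. *Col12a1* stood at 2114, 3525, 4213 and 4620 CPM in WT and at 1209, 458 and 409 CPM in KO22. All KO22 libraries lay below all WT libraries, and the batch 1 library of each group was closest to the other group. Its log2 fold change was -2.56 (SE 0.451, edgeR adjusted p = 0.00116), with -0.81 within batch 1 and -3.24 within batch 2. *Col20a1* measured 7.99, 12.4, 10.7 and 11.4 CPM in WT and 9.95, 1.01 and 1.24 CPM in KO22. Here the groups overlapped, since KO22 replicate 1 was as high as WT. The log2 fold change was -2.02 (SE 0.649, edgeR adjusted p = 0.0252), but within batch 1 the log2 ratio was 0.30 and within batch 2 it was -2.88. With 1 fit over all 9 mRPE libraries or without the batch term *Col20a1* was not called (-1.65 and -1.44). Its call was lost without WT replicate 2, 3 or 4 (log2 fold change -1.94, -2.01 and -1.98) and without KO22 replicate 2 or 3 (-1.37 and -1.58). *Col14a1*, *Col16a1* and *Col9a3*, at log2 fold changes of 0.93, 0.06 and 0.92, did not pass both limits. For *Col9a3* it was 2.09 and 0.22 within batches 1 and 2, and 0.19 to 1.28 with each library left out.

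Of the 6 basement membrane network genes, 5 did not pass both limits. *Col4a1* and *Col4a2*, which make the common type IV molecule, had log2 fold changes of -0.60 and -0.54, past the adjusted p limit but not the fold limit. Only *Col4a4* was called lower, at -1.52 (SE 0.303, edgeR adjusted p = 0.00230), from 3.52 to 1.27 CPM. *Col4a5* and *Col4a6* sit next to each other on the X chromosome and moved apart. *Col4a5*, named after its values were seen, was at 100.5, 84.9, 85.7 and 85.8 CPM in WT and at 36.4, 42.8 and 42.9 CPM in KO22. *Col4a6* measured 9.81, 11.2, 9.13 and 9.76 CPM in WT and 18.0, 23.8 and 25.8 CPM in KO22. KO22 lay below WT for *Col4a5* and above WT for *Col4a6*, with no overlap in either. The log2 fold changes were -1.13 (SE 0.119) for *Col4a5* and 1.17 (SE 0.149) for *Col4a6*, both just inside the fold limit. Without KO22 replicate 2 or 3, *Col4a5* passed it (-1.22 and -1.23). *Col4a6* passed it without WT replicate 1 (1.28) or KO22 replicate 1 (1.30), and barely without WT replicate 2.

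The hexagonal network collagens showed the widest difference, and all 3 were lower in KO22. *Col8a1* and *Col8a2* encode type VIII collagen, which forms a lattice in Descemet's membrane and is made by vessel wall and eye cells. *Col8a2* (ENSMUSG00000056174, GRCm39 chr4:126180559-126208123, plus strand) stood at 27.7, 36.2, 36.8 and 43.0 CPM in WT. In KO22 it was at 0.519, 0.145 and 0.388 CPM, which is 6, 3 and 5 counts. The transcript was thus close to the limit of detection in every KO22 library and well above it in every WT library. The log2 fold change was -6.78 (SE 0.313, edgeR adjusted p = 6.66e-07), and -4.79 and -5.69 within batches 1 and 2, where the added 0.5 CPM makes the values smaller in size. *Col8a1* measured 593, 379, 418 and 462 CPM in WT and 97.8, 74.2 and 76.6 CPM in KO22. It fell in every KO22 library, with a log2 fold change of -2.51 (SE 0.121, edgeR adjusted p = 7.62e-07), and -2.59 and -2.47 within batches 1 and 2. *Col10a1*, the collagen of hypertrophic cartilage, went from a mean of 3.95 to 0.802 CPM, a log2 fold change of -2.31.

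Type VI collagen forms beaded filaments around cells from the chains of *Col6a1*, *Col6a2* and *Col6a3*, and the 3 genes did not move together. *Col6a1* was at 796, 742, 776 and 743 CPM in WT and at 222, 239 and 195 CPM in KO22. *Col6a2* measured 613, 541, 544 and 512 CPM in WT and 128, 161 and 123 CPM in KO22. For both genes the groups were far apart and the libraries within a group close. The log2 fold change was -1.81 (SE 0.121, edgeR adjusted p = 4.07e-06) for *Col6a1*, with -1.84 and -1.80 within batches 1 and 2. For *Col6a2* it was -2.01 (SE 0.140, edgeR adjusted p = 5.18e-06), with -2.26 and -1.92 within them. *Col6a3*, named after its values were seen, stood at 912, 736, 696 and 659 CPM in WT and at 843, 906 and 785 CPM in KO22. These groups overlapped, with a log2 fold change of 0.16 (SE 0.127, edgeR adjusted p = 0.307). *Col6a4*, an alternative to the *Col6a3* chain, went from a mean of 0.589 to 1.58 CPM, a log2 fold change of 1.41. Without KO22 replicate 2 that value was 1.08 and its call was lost.

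The remaining classes held the other higher genes, *Col7a1* and *Col15a1*. *Col7a1*, the chain of the anchoring fibrils that tie basement membrane to stroma, was at 6.95, 6.10, 4.52 and 3.88 CPM in WT and at 17.6, 17.6 and 21.2 CPM in KO22. All KO22 libraries were above all WT libraries, with a log2 fold change of 1.79 (SE 0.207, edgeR adjusted p = 9.29e-05), and 1.28 and 1.91 within batches 1 and 2. *Col15a1*, a multiplexin that lies between basement membrane and fibrils, measured 2.11, 1.51, 0.687 and 1.15 CPM in WT and 14.3, 5.45 and 4.81 CPM in KO22. KO22 replicate 1 was the highest, and no KO22 library reached down to WT. It rose by a log2 fold change of 2.38 (SE 0.270, edgeR adjusted p = 8.23e-05), with 2.50 and 1.83 within batches 1 and 2. *Col18a1*, the other multiplexin and the source of endostatin, had a log2 fold change of 0.06. Of the transmembrane collagens, *Col17a1* had 0.37 and *Col23a1* -1.69 with an edgeR adjusted p of 0.0729, neither past both limits. For *Col23a1* the groups overlapped, and the direction turned between batches, with 1.14 within batch 1 and -2.68 within batch 2. It passed both limits without WT replicate 1 (-2.88) or KO22 replicate 1 (-2.86), which are the batch 1 libraries, and with no batch term (-1.82). Outside these classes, *Col28a1*, at a mean of 0.579 CPM in WT, had a log2 fold change of -0.44. Without KO22 replicate 2 it passed both limits as lower (-2.60).

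**Figure D2:**
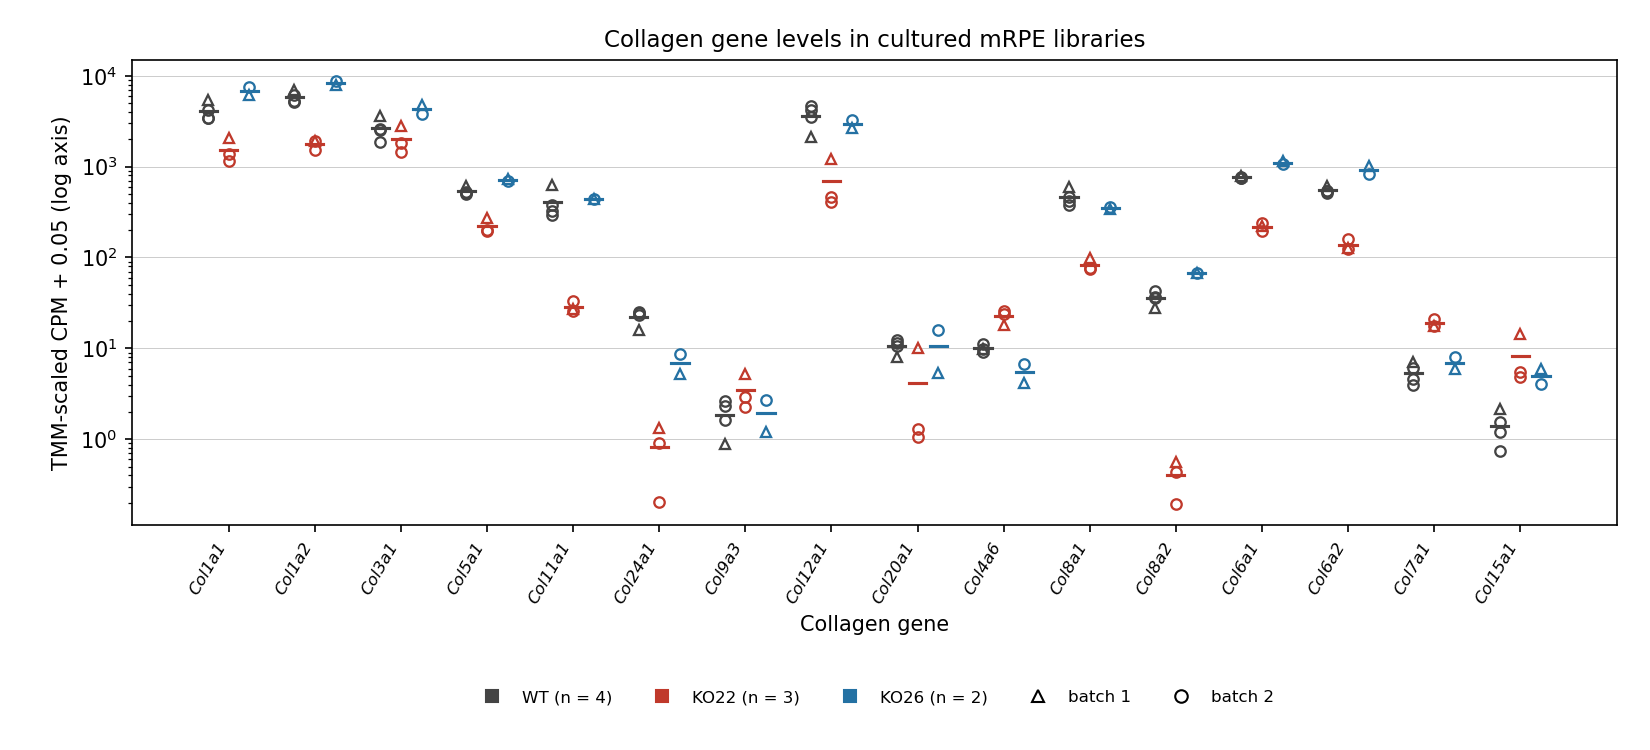
TMM-scaled CPM (log axis, 0.05 added) of 16 collagen genes in the 4 WT, 3 KO22 and 2 KO26 mRPE libraries, with triangles for batch 1, circles for batch 2 and lines for group means. Col8a2 has the widest gap, with KO22 at 0.145 to 0.519 CPM, WT at 27.7 to 43.0 CPM and KO26 at 67.5 and 68.1 CPM.

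KO26 against WT uses the same WT libraries as KO22 against WT, so the values stand beside each other and are not independent. The authors set both KO26 libraries aside as outliers after adjusting for batch, and they are used here. In KO26, 1 of 36 collagens passed both limits, *Col15a1*, which was higher. That is 2.78% of the collagens, where 1.21% of all 20737 genes tested were higher. None was lower by edgeR, where 0.719% of all genes were. At an unadjusted p under 0.05 there were 5 lower (13.9%) and 10 higher (27.8%) collagens, beside 1871 (9.02%) and 2291 (11%) of all 20737 genes. DESeq2 called 1 lower, *Col24a1*, and 1 higher, each 2.78% of the collagens, beside 1.30% and 1.74% of all genes. The median log2 fold change was 0.29 over the collagens and 0.03 over all genes tested, and without KO26 replicate 2 the collagen median turned to -0.04, with 19 of 36 values negative. Without the limit on the fold change 3 collagens (8.33%) counted as higher, beside 2.36% of all genes, and without the batch term none did.

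*Col15a1* measured 5.85 and 4.05 CPM in KO26 replicates 1 and 2, above all WT libraries, of which the highest held 2.11 CPM. The log2 fold change was 1.60 (SE 0.328, edgeR adjusted p = 0.0280), with 1.28 and 1.53 within batches 1 and 2. Its call was lost without any of the 4 WT libraries, without either KO26 library and without KO22 replicate 2. The log2 fold changes were then 1.25 to 1.94. For a lone KO26 library, the test assumes that it varies like the other groups.

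The main fibril genes were not lower in KO26. *Col1a1* stood at 6136 and 7595 CPM, above the highest WT library, with a log2 fold change of 0.69 (SE 0.217, edgeR adjusted p = 0.113). It was 0.18 and 1.05 within batches 1 and 2, and 0.13 to 1.06 with each library left out. *Col1a2* was at 7894 and 8718 CPM, also above all WT libraries, at 0.47 (SE 0.173, edgeR adjusted p = 0.162). For *Col3a1* the values were 4771 and 3753 CPM and the log2 fold change 0.56, and for *Col5a1* 725 and 695 CPM and 0.34, neither past the limits. *Col11a1* stayed among WT at 446 and 439 CPM, at 0.08 (SE 0.231). The direction turned between batches 1 and 2 (-0.49 and 0.40), and the value ran from -0.19 to 0.44 with each library left out. *Col24a1* was at 5.20 and 8.67 CPM, below all WT libraries, at -1.61 (SE 0.396, edgeR adjusted p = 0.0535). That value passed both limits without KO22 replicate 1 (log2 fold change -1.53) or 3 (-1.58). *Col23a1* had -1.44 (edgeR adjusted p = 0.302) with overlapping groups, and turned between batches 1 and 2 (0.20 and -1.52). It was called lower without WT replicate 1 (-2.23).

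*Col8a2*, nearly absent from KO22, was at 67.5 and 68.1 CPM in KO26, above all WT libraries. Its log2 fold change was 0.98 (SE 0.215, edgeR adjusted p = 0.0358), short of the fold limit. *Col8a1* measured 345 and 357 CPM, below all WT libraries, at -0.45 (edgeR adjusted p = 0.139). Of the type VI genes, *Col6a1*, *Col6a2* and *Col6a3* lay above WT in both KO26 libraries, with log2 fold changes of 0.52, 0.72 and 0.57, while *Col6a4* and *Col6a6* overlapped WT. Of the first 3, *Col6a2* had an edgeR adjusted p of 0.0357. *Col12a1*, at 2647 and 3244 CPM, overlapped WT, and so did *Col20a1* at 5.34 and 16.0 CPM. *Col7a1* at 5.85 and 7.98 CPM also overlapped WT, with a log2 fold change of 0.32 that turned between batches (-0.23 and 0.69) and ran from -0.03 to 0.63 with each library left out. *Col4a6*, at 4.08 and 6.71 CPM, was below all WT libraries at -0.86 (edgeR adjusted p = 0.0580), whereas in KO22 it lay above them.

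The difference between the clones was tested directly in a fit over all 9 mRPE libraries. Relative to KO26, 13 collagens were lower in KO22 and 3 were higher. The lower ones are 36.1% of the 36, where 10.7% of all 20737 genes tested were lower, and the higher ones 8.33%, where 7.57% of all genes were higher. The median log2 fold change was -0.84 over the collagens and 0.00 over all genes tested. The largest difference was that of *Col8a2*, at -7.76 (SE 0.325, edgeR adjusted p = 3.72e-07), with -6.06 and -6.50 within batches 1 and 2. *Col11a1* followed at -3.88 (SE 0.258, edgeR adjusted p = 3.73e-06), with -4.01 and -3.89 within them. *Col6a2* differed by -2.73 and *Col6a1* by -2.33, while *Col6a3* at -0.41 did not pass. *Col1a2* at -2.21, *Col1a1* at -2.17 and *Col5a1* at -1.65 were lower too. *Col4a6* was higher in KO22 by 2.04 (SE 0.230, edgeR adjusted p = 0.000111), and so were *Col7a1* by 1.47 and *Col6a4* by 1.89.

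Several of these calls rested on single libraries. Without KO26 replicate 1 the higher collagens numbered 1, as *Col6a4* (1.59) and *Col7a1* (1.17) were lost, and so was the lower call of *Col10a1* (-1.42). Without KO26 replicate 2 the calls of *Col6a4* (2.19), *Col11a2* (-1.17), *Col12a1* (-1.76) and *Col4a4* (-0.88) were lost. KO22 replicate 2 carried the calls of *Col6a4* (1.68 without it), *Col10a1* (-1.27) and *Col4a4* (-1.09). *Col4a4* was also lost without KO22 replicate 3 (-1.02) or WT replicate 1 (-1.19). *Col20a1* became lower without KO22 replicate 1 (-3.52) or KO26 replicate 1 (-2.80), *Col23a1* without KO22 replicate 1 (-1.91) and *Col4a5* without KO26 replicate 1 (-1.39). With all libraries *Col20a1* was at -1.57 (edgeR adjusted p = 0.169), and it ran from -3.52 to 0.01 with each library left out. Within batches 1 and 2 it turned, with 0.84 and -3.34. *Col23a1*, at -0.20 with all libraries, turned as well, with 0.94 and -1.16. *Col15a1* did not differ between the clones by these limits, at 0.79 (SE 0.323, edgeR adjusted p = 0.0846).

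Ratios of collagen genes whose chains share a molecule, a type or a fibril were set side by side on the CPM per kilobase scale, with no test. The ratio of *Col6a3* to *Col6a1* was 0.516, 0.447, 0.404 and 0.400 in WT replicates 1 to 4. It was 1.71, 1.70 and 1.81 in KO22 and 0.517 and 0.429 in KO26. Among the mRPE groups KO22 alone had more *Col6a3* than *Col6a1* on that scale, and KO26 overlapped WT. In all 6 tissue libraries the ratio was above 1 as well, at 1.04 to 1.48. The ratio of *Col3a1* to *Col1a1* lay at 0.587 to 0.786 in WT, at 1.35 to 1.45 in KO22 and on either side of WT in KO26. For *Col5a1* to *Col5a2* it was 0.782 to 0.921 in WT, 0.475 to 0.541 in KO22 and 0.923 and 0.787 in KO26. By contrast *Col4a1* to *Col4a2* stayed between 1.11 and 1.32 in all 9 mRPE libraries. *Col4a6* to *Col4a5* was 0.0964 to 0.131 in WT, 0.488 to 0.595 in KO22, and 0.0553 and 0.0626 in KO26.

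Position and promoter are shared features that the symbols do not use. The 6 type IV genes lie in head-to-head pairs. In the GRCm39 annotation *Col4a1* and *Col4a2* on chromosome 8 overlap by 356 bases at their starts, and *Col4a4* and *Col4a3* on chromosome 1 by 159 bases. *Col4a6* (chrX:139948399-140257072, minus strand) and *Col4a5* (chrX:140258354-140472231, plus strand) are separated by 1281 bases. The paper names a stranded library kit, but the sample labels name a different one, and no source used here says whether counting used the strand. Reads in the overlaps therefore cannot be assigned for certain. *Col4a1* and *Col4a2* kept their ratio in the clones, whereas *Col4a5* and *Col4a6* moved in opposite directions in KO22. The ratio of *Col4a3* to *Col4a4*, from 4 to 82 counts per gene and library, was 0.308 to 0.545 in WT, 0.604 to 1.21 in KO22, and 0.259 and 0.167 in KO26.

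Promoters of 250 bases upstream of the transcript start were available in the RefSeq table, on GRCm38.p6, for 35 of the 44 genes, as 38 promoters. Not listed there were *Col12a1*, *Col14a1*, *Col1a1*, *Col22a1*, *Col26a1*, *Col2a1*, *Col4a3*, *Col5a2* and *Col9a3*. The motifs searched for on both strands were the CCAAT box, the TATA-type letters TATAA, the GC box GGGCGG and the AP-1-type letters TGAGTCA. The CCAAT box was in 13 of the 38 collagen promoters (34.2%) and in 33.8% of all 32851 promoters, and TATAA in 7 (18.4%) and 22.8%. GGGCGG was in 22 (57.9%) and in 32.7% of all promoters, and TGAGTCA in 1 (2.63%) and 4.46%. A match is a run of letters, not a bound site. The promoters below, chosen after the values were seen, are those of genes with the contrasts above: *Col1a2* and *Col8a2*, which were low in KO22, *Col6a1* against *Col6a3*, and the X-linked neighbours. Each is printed 5′ to 3′ on the strand of its gene with the matches in capitals. They lie at chr6:4505368-4505617 (plus) for *Col1a2*, chr4:126286544-126286793 (plus) for *Col8a2*, chr10:76726045-76726294 (minus) for *Col6a1*, chr1:90843972-90844221 (minus) for *Col6a3*, chrX:141474077-141474326 (minus) for *Col4a6* and chrX:141475169-141475418 (plus) for *Col4a5*. *Col8a2* has 4 matches to GGGCGG, *Col1a2* has 1 to CCAAT and 2 to GGGCGG, and *Col6a1* has the only TGAGTCA among the 38 collagen promoters searched. *Col6a3* has no match to these letters, *Col4a6* has 1 TATAA and 1 GGGCGG, and *Col4a5* has 1 CCAAT and 1 GGGCGG.
Col1a2 promoter: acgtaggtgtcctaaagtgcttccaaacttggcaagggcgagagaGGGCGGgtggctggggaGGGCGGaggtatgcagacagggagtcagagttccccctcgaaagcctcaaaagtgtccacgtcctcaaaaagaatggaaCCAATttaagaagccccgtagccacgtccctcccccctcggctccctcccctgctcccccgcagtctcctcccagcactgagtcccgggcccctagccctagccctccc
Col8a2 promoter: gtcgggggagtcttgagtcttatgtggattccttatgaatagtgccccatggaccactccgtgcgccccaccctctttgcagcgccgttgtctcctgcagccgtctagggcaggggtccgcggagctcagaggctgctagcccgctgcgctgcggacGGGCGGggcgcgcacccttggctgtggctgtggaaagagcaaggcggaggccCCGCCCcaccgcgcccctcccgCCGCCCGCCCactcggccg
Col6a1 promoter: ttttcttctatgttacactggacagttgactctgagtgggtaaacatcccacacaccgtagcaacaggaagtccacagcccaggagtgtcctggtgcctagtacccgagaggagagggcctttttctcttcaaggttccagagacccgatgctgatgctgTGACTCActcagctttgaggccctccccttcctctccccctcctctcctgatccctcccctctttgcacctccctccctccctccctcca
Col6a3 promoter: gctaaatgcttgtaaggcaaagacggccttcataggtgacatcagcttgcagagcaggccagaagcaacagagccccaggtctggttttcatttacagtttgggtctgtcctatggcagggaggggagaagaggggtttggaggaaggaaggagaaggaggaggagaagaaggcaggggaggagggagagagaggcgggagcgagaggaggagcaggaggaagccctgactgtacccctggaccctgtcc
Col4a6 promoter: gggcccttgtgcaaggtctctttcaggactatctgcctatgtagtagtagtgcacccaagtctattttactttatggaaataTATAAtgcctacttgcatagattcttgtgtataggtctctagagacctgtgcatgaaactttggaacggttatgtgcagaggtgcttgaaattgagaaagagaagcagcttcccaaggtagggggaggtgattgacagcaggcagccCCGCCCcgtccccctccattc
Col4a5 promoter: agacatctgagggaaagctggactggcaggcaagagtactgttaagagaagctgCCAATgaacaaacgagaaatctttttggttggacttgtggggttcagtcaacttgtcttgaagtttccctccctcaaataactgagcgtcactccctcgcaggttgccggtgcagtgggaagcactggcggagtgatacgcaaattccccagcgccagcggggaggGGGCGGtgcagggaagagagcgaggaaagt

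Genes of the collagen pathway were looked at in 7 lists. Of 20 genes of modification and folding, 3 were lower and 1 higher in KO22 than in WT, beside 13.8% and 11.4% of all genes tested. The lower ones were *P4ha3*, a prolyl hydroxylase subunit, at -1.58, *P3h2*, which hydroxylates proline at another position, at -1.33, and *Colgalt2*, with 3, 5 and 2 counts in the KO22 libraries. *Tmem38b*, an ion channel of the endoplasmic reticulum, was higher by edgeR (edgeR adjusted p = 0.000634), just past the fold limit, and was not called by DESeq2. The collagen chaperone gene *Serpinh1*, named after its values were seen, had a log2 fold change of 0.38 (SE 0.154, edgeR adjusted p = 0.0628). None of the 8 export genes passed both limits by edgeR, with 3 higher and 2 lower at an unadjusted p under 0.05, where 29.3% and 29.0% of all genes were, and 0 called by DESeq2. Of 6 genes of propeptide removal, *Pcolce2*, which enhances the cleavage of procollagen, was higher at 5.03, from a mean of 1.22 to 40.2 CPM. *Adamts2*, which cuts the amino-terminal propeptide, and *Tll1*, a protease of the tolloid family, were lower at -1.63 and -1.43.

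Outside the cell, 1 of 7 crosslinking genes was lower in KO22, *Lox*, the lysyl oxidase that links collagen chains. *Lox* stood at 5997, 5200, 5908 and 5407 CPM in WT and at 3621, 1180 and 1227 CPM in KO22. Those groups did not overlap, with a log2 fold change of -1.76 (SE 0.275, edgeR adjusted p = 0.000550), and -0.73 and -2.19 within batches 1 and 2. Of 9 collagen receptor genes, the integrin subunits *Itga1* and *Itga11* were lower at -4.51 and -4.34, and *Cd44* was higher at 1.68. Among 9 genes of uptake and breakdown, *Mmp9* was higher at 1.29 and *Mmp8* was lower, with at most 1 count in any KO22 library. Of 11 partners of type IV collagen in basement membranes, 3 were lower, *Lama2* at -5.66, *Nid2* at -4.24 and *Lama1* at -2.20, and *Lama5* was higher at 3.31. These counts are 14.3% lower for crosslinking, 22.2% lower and 11.1% higher for receptors, 11.1% each way for uptake and breakdown, and 27.3% lower and 9.09% higher for basement membrane partners. Of all genes tested 13.8% were lower and 11.4% higher, so the crosslinking and uptake shares are near the background. Near it too are the higher shares of receptors and basement membrane partners. Modification and folding had 15% lower, which is also near the background, and 5% higher. Propeptide removal had 33.3% lower and 16.7% higher.

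In KO26 against WT, the list of uptake and breakdown had *Mmp9* higher at 2.02 and *Ctsk*, a collagen-cutting cathepsin, higher at 1.36, which is 2 of 9 genes (22.2%) beside 1.21% of all genes tested. No gene of the other 6 lists passed both limits by edgeR. At an unadjusted p under 0.05, 12 of the 20 genes of modification and folding were higher and 1 was lower. Higher and lower were 2 and 1 of 8 export genes, 2 and 1 of 6 for propeptide removal and 3 and 0 of 7 for crosslinking. For receptors they were 2 and 0 of 9, and for basement membrane partners 2 and 1 of 11. Of all 20737 genes tested 2291 (11%) were higher and 1871 (9.02%) lower at that limit. DESeq2 called *Tll1* lower and *Lama1* higher. Between the clones, *P3h3* (-1.76), *Creb3l1* (-1.58), *P4ha3* (-1.21) and *P3h2* (-1.24) of modification and folding were lower in KO22 and *Tmem38b* (1.36) was higher. Of these, *P4ha3*, just past the fold limit, was not called by DESeq2. *Creb3l1* encodes a transcription factor of the endoplasmic reticulum that acts on collagen genes. *Pcolce2* (4.58) and *Lama5* (3.81) were higher, and *Adamts2* (-1.64), *Itga1* (-4.52), *Itga11* (-4.85), *Fap* (-1.48), *Lama2* (-5.50), *Nid2* (-4.11) and *Lama1* (-3.81) were lower, as was *Mmp8*. Of all genes tested 7.57% were higher and 10.7% lower between the clones by these limits. Export and crosslinking had none past both limits by edgeR or DESeq2, with 1 higher and 1 lower export gene and 0 higher and 5 lower crosslinking genes at an unadjusted p under 0.05, where 21.2% of all genes were higher and 22.9% lower.

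Markers of other cell types also differed between the mRPE groups. The 7 pericyte and smooth muscle markers, led by *Acta2*, summed to 1976, 977, 951 and 1005 CPM in WT, 427, 355 and 312 CPM in KO22, and 2207 and 1232 CPM in KO26. *Acta2*, *Pdgfrb* and *Rgs5* were lower in KO22, while *Cnn1* and *Cspg4* were higher. The 5 measured of 8 endothelial markers, led by *Kdr*, summed to 236, 163, 153 and 164 CPM in WT, 4.76, 5.40 and 3.49 CPM in KO22, and 74.1 and 56.7 CPM in KO26. *Kdr* and *Tek* were lower in KO22, while *Plvap* was higher. The 6 fibroblast markers summed to 1949, 1753 and 1466 CPM in KO22 and to 1296 and 2290 CPM in KO26. Of these 6, *Pdgfra*, *Mfap5*, *Scara5* and *Pi16* were lower in KO22, and the median log2 fold change was -1.54. *Dcn* went the other way, from a mean of 828 to 1192 CPM, with overlapping groups and no call (0.61, edgeR adjusted p = 0.113). Markers of cartilage and sclera, 5 of 8 measured and led by *Prg4*, summed to 40.7 to 43.9 CPM in WT, 135 to 222 CPM in KO22, and 53.9 and 46.3 CPM in KO26. *Prg4*, *Acan* and *Sox9* were higher in KO22. The 4 RPE markers summed to 40.0, 20.8 and 17.3 CPM in KO22 and to 8.17 and 12.6 CPM in KO26. *Mitf* was higher in KO22. The means of *Rdh5* and *Pmel* went the other way from WT to KO22, with neither past both limits. They were 4.21 and 1.87 CPM for *Rdh5*, and 2.08 and 1.56 CPM for *Pmel*. In these 5 lists at most 1 measured marker stood at 0 counts in any library. The part of these differences in the collagen results was not tested.

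RPE/choroid was meant to address the gene's loss in the RPE of the animal. The *Prom1* counts do not show that loss, so the direction is drawn from the labels alone. *Col9a3* was lower in the libraries labelled Prom1-KO, and it was the only one of 43 collagens to pass both limits by edgeR. That is 2.33% of the collagens, where 0.189% of all 24926 genes tested were lower. None was higher by edgeR, where 0% of all genes were, with 1 collagen (2.33%) at an unadjusted p under 0.05, beside 3.98% of all genes, and 0 by DESeq2. At that limit 10 collagens (23.3%) were lower, beside 4.31% of all genes. DESeq2 called 4 (9.30%) lower, *Col9a3*, *Col8a2*, *Col13a1* and *Col15a1*, beside 0.754% of all genes. The median log2 fold change was -0.42 over the collagens and 0.01 over all genes tested, and 33 of the 43 values were negative. The collagen median was -0.65 without WT replicate 1 and -0.21 without WT replicate 3.

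**Figure D3:**
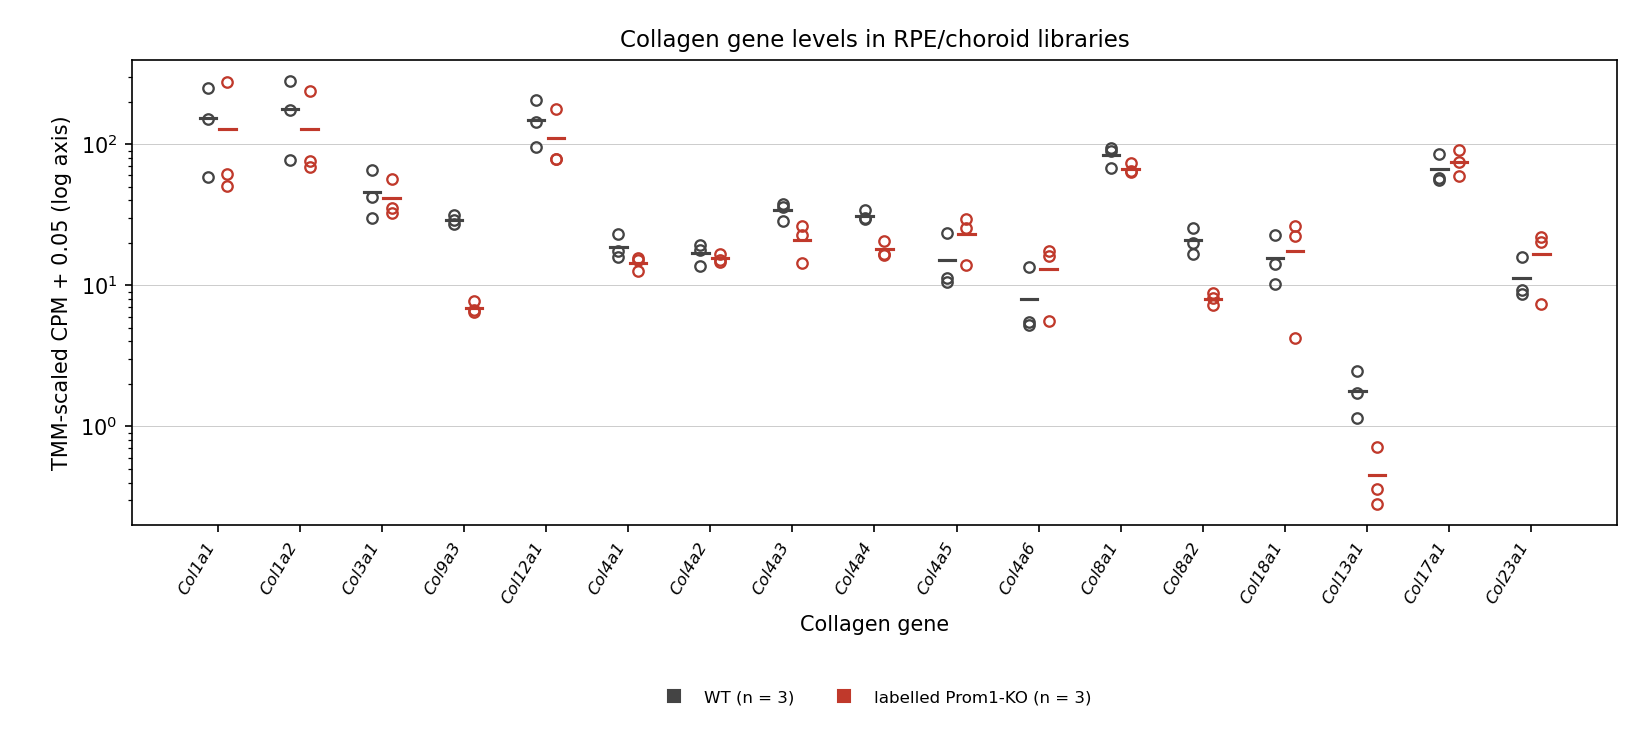
TMM-scaled CPM (log axis, 0.05 added) of 17 collagen genes, chosen after their values were seen, in 3 WT RPE/choroid libraries and 3 labelled Prom1-KO, with lines for group means. Col9a3 is at 27.0 to 31.4 CPM in WT and at 6.38 to 7.70 CPM in the others, while Col1a1 and Col1a2 spread widely within both groups.

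*Col9a3* (ENSMUSG00000027570, GRCm39 chr2:180239583-180264063, plus strand) encodes a chain of type IX collagen, a FACIT of cartilage and vitreous. It measured 27.0, 31.4 and 29.0 CPM in WT and 6.60, 6.38 and 7.70 CPM in the libraries labelled Prom1-KO. Both groups were tight and far apart. *Col9a3* had a log2 fold change of -2.08 (SE 0.136, edgeR adjusted p = 0.00445), and leaving out any library kept it at -2.18 to -2.02 and past both limits. In tissue, fewer cells of a type and less RNA per cell cannot be told apart. Its partner chains were counted at other levels, *Col9a1* at 4.52, 1.86 and 4.23 CPM in WT and 10.1, 5.34 and 3.25 CPM in the others. *Col9a2* stayed at or below 1.17 CPM in each library. Neither followed *Col9a3*, with log2 fold changes of 0.82 and 0.62 and overlapping groups.

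Markers of the RPE fell in the same libraries. The 15 RPE markers, led by *Dct*, summed to 1379, 1481 and 1298 CPM in the libraries labelled Prom1-KO, below the 2672 to 3645 CPM of WT. Of these markers 13 had negative log2 fold changes and 4 passed both limits. Those were *Rpe65* at -6.06, *Rgr* at -5.23, *Lrat* at -3.43 and *Rdh5* at -2.10, all genes of the visual cycle. *Rpe65* went from 280, 204 and 287 CPM to 1.13, 5.97 and 4.48 CPM. All 15 had counts in each library. The part of this shift in the collagen values was not tested.

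*Col8a2*, a hexagonal network gene that was lower than WT in KO22 and above all WT libraries in KO26, did not pass the adjusted p limit by edgeR in the tissue. It stood at 25.6, 16.7 and 20.0 CPM in WT and at 7.16, 8.77 and 8.03 CPM in the libraries labelled Prom1-KO. The groups did not overlap, and the log2 fold change was -1.38 (SE 0.185, edgeR adjusted p = 0.0513). It passed with DESeq2 (-1.38, adjusted p = 1.20e-07) and, in edgeR, with mitochondrially encoded genes left out (-1.39, adjusted p = 0.0459). *Col8a1*, the other chain of type VIII, measured 94.3, 68.0 and 88.9 CPM in WT and 64.6, 63.0 and 73.0 CPM in the others. Those groups overlapped, at -0.32 (SE 0.161, edgeR adjusted p = 0.674). On the CPM per kilobase scale the ratio of *Col8a1* to *Col8a2* was 3.15, 3.47 and 3.79 in WT and 7.69, 6.13 and 7.76 in the libraries labelled Prom1-KO.

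No basement membrane gene passed the limits in the tissue, and the values below were picked out after they were seen. *Col4a3* was at 37.6, 28.5 and 35.8 CPM in WT and at 26.1, 22.5 and 14.3 CPM in the libraries labelled Prom1-KO. *Col4a4* measured 33.9, 29.6 and 29.9 CPM in WT and 20.6, 16.7 and 16.4 CPM in the others. For both genes all WT libraries were the higher ones, but neither passed the test. The log2 fold changes were -0.69 (edgeR adjusted p = 0.462) and -0.80 (edgeR adjusted p = 0.115). *Col4a5* stood at 23.4, 10.5 and 11.2 CPM in WT and at 29.6, 25.6 and 13.9 CPM in the others. *Col4a6* followed the same libraries, at 13.4, 5.17 and 5.41 CPM and at 17.5, 16.1 and 5.51 CPM. WT replicate 1 and labelled Prom1-KO replicates 1 and 2 were high for this pair, so the groups overlapped. *Col4a1* had -0.38 and *Col4a2* -0.13 as log2 fold change.

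The same libraries stood out for other collagens, again chosen after seeing the values. *Col18a1* measured 22.7, 10.1 and 14.2 CPM in WT and 26.2, 22.4 and 4.18 CPM in the libraries labelled Prom1-KO. *Col23a1*, a transmembrane collagen, was at 15.8, 8.57 and 9.21 CPM in WT and at 21.9, 20.4 and 7.36 CPM in the others. For both, labelled Prom1-KO replicate 3 was the lowest library of all 6. Neither differed between the labelled groups, at log2 fold changes of 0.17 (SE 0.605) and 0.57 (SE 0.419).

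The type I genes varied widely between tissue libraries of the same label. *Col1a1* stood at 58.8, 151 and 251 CPM in WT and at 61.1, 50.2 and 274 CPM in the libraries labelled Prom1-KO. *Col1a2* showed the same order within each group, at 77.8, 175 and 279 CPM and at 76.3, 68.5 and 236 CPM. The highest library was replicate 3 in each group, and the groups overlapped fully. The log2 fold changes were -0.26 (SE 0.741) and -0.48 (SE 0.594) for *Col1a1* and *Col1a2*. Leaving out single libraries moved the first from -1.48 to 0.29 and the other from -1.31 to 0.01, none past the limits. *Col12a1*, of the FACIT class, measured 95.2, 143 and 207 CPM in WT and 78.1, 77.8 and 177 CPM in the others, at -0.42 (SE 0.400). Its value ran from -0.94 to -0.10 with each library left out. Fibroblast markers, 7 of 7 and led by *Dcn*, summed to 778, 1315 and 1379 CPM in WT and to 771, 683 and 1347 CPM in the others. Skeletal muscle markers, 5 of 5 and led by *Myh4*, summed to 258, 529 and 744 CPM and to 43.4, 187 and 689 CPM. Both lists were thus highest in replicate 3 of each group, and their part in these values was not tested.

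Per kilobase, *Col1a2* and *Col1a1* had the highest means among the collagens in WT tissue, at 33.1 ± 18.8 and 25.9 ± 16.2 CPM per kilobase (SD, n = 3). *Col8a1* at 16.4 ± 2.71, *Col12a1* at 12.5 ± 4.73 and *Col17a1* at 11.9 ± 3.02 came next, with SDs that overlap their neighbours'. Both type I means lay within the sum of SDs of *Col8a1*. In WT replicate 1, *Col8a1* (18.5) and *Col17a1* (15.3) were above *Col1a2* (14.5) and *Col1a1* (9.91). Over the length of all exons joined, *Col1a1* had rank 1, *Col1a2* rank 2 and *Col17a1* rank 3. *Col17a1*, the transmembrane collagen of hemidesmosomes, was at 85.7, 57.9 and 55.4 CPM in WT and at 59.2, 91.3 and 74.2 CPM in the libraries labelled Prom1-KO. Its groups overlapped, at a log2 fold change of 0.18 (SE 0.229). Cell and tissue tables were scaled apart, so these levels are not tested against those of mRPE.

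Low collagens gave the other DESeq2 calls. *Col13a1*, a transmembrane collagen of neuromuscular junctions, was at 1.09, 2.42 and 1.66 CPM in WT and at 0.233, 0.310 and 0.663 CPM in the libraries labelled Prom1-KO. *Col15a1* was called higher in both mRPE clones, but its KO26 call was lost without any 1 WT or KO26 library. In tissue it was at 6.17, 9.96 and 6.01 CPM in WT and at 3.67, 2.58 and 3.15 CPM in the others. The groups did not overlap for either gene. Their log2 fold changes were -2.15 (SE 0.475, edgeR adjusted p = 0.201) and -1.24 (SE 0.248, edgeR adjusted p = 0.177). Endothelial markers, 8 of 8 and led by *Emcn*, summed to 108, 216 and 145 CPM in WT and to 98.1, 88.5 and 84.6 CPM in the others, with 8 negative log2 fold changes and no marker at 0 counts. Their part in the *Col15a1* values was not tested. Pericyte and smooth muscle markers, 7 of 7 and led by *Rgs5*, summed to 342 to 426 CPM in WT and to 344 to 371 CPM in the others.

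In the 7 pathway lists, which had 7 to 20 genes measured in the tissue, no gene passed both limits by edgeR in either direction. At an unadjusted p under 0.05, 2 of 20 genes of modification and folding were higher and 1 was lower. Higher and lower were 0 and 1 of 8 export genes, 1 and 1 of 8 for propeptide removal and 2 and 1 of 7 for crosslinking. For receptors they were 1 and 1 of 11, for uptake and breakdown 1 and 3 of 9, and for basement membrane partners 0 and 2 of 11. Of all genes tested 3.98% were higher and 4.31% lower at that limit. DESeq2 called 1 gene, the crosslinking gene *Loxl4*, which was lower. *Lox*, lower in KO22, had a log2 fold change of 0.72 (SE 0.272, edgeR adjusted p = 0.536) in the tissue, and *Serpinh1* had -0.50 (SE 0.184, edgeR adjusted p = 0.523).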

How the data were processed

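The authors sequenced RNA of mRPE cells and RPE/choroid, trimmed reads with Trim Galore 0.6.7, aligned them to mm39 with STAR and deposited a table of raw gene counts for each, which are the counts used here. The sample labels tell the groups. Low genes were left out (fewer than 5 counts in all but 2 or fewer libraries compared), and groups were tested with edgeR 4.0.16 (R 4.3.3) by the quasi-likelihood test with TMM factors, a batch term for mRPE and the Benjamini-Hochberg adjustment over all genes tested. The limits for a call were 0.05 for the adjusted p and, in either direction, 1.2 for the log2 fold change. SE was the log2 fold change over the square root of its F statistic. Alternatives were DESeq2 1.42.0, other factors and filters, no batch term, other sets of libraries and each library left out. The scripts were tested on simulated data with the same spread for every gene and no batch effect. Those data are simpler than these libraries, so the test does not measure how reliable the calls are here. Collagens were named by rule where called, or among the 5 highest per kilobase in a WT group, with values per library if a group mean reached 5 CPM. The members and lists were chosen with earlier results of these data known. The cell and tissue tables were not tested against each other.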

Additional observations from a re-analysis of the deposited data

Results flagged for a closer look

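These 16 values were picked out because the clones KO22 and KO26, both made to lack *Prom1*, differed past both limits, as log2 fold change of KO22 over KO26. Lower in KO22 were *Col8a2* (-7.76), *Col11a1* (-3.88), *Col24a1* (-3.16), *Col6a2* (-2.73), *Col6a1* (-2.33), *Col1a2* (-2.21), *Col1a1* (-2.17), *Col12a1* (-2.12), *Col8a1* (-2.05), *Col5a1* (-1.65), *Col10a1* (-1.60), *Col11a2* (-1.54) and *Col4a4* (-1.21). Higher in KO22 were *Col4a6* (2.04), *Col6a4* (1.89) and *Col7a1* (1.47). Whether these differences come from the clones, their culture or the edit cannot be told apart with 1 line per clone, and no cause was tested.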

How the results depend on the processing

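In KO22 against WT the collagens called higher and lower numbered 3 and 14 under other scaling, filters and DESeq2, 3 and 13 in 1 fit over all 9 libraries, 2 to 4 and 13 to 15 with each library left out, and 6 higher without the fold limit. Without the batch term *Col23a1* took the place of *Col20a1*. *Col20a1* turned from lower to a log2 ratio of 0.30 within batch 1, where each group has 1 library. In KO26 against WT, 1 higher and 0 lower became 3 higher without the fold limit, 0 higher without the batch term, and 1 lower with DESeq2 or with WT and KO26 libraries only. With each library left out there were 0 to 1 higher and 0 to 1 lower. Between KO22 and KO26, 3 higher and 13 lower became 1 to 3 and 10 to 15 with each library left out, and 2 and 11 with KO22 and KO26 libraries only. Other scaling lost *Col4a4* and no batch term *Col10a1*, each leaving 12 lower. In tissue, 1 lower became 4 with DESeq2 and 2 without mitochondrially encoded genes, a choice made after seeing the data, and stayed 1 with each library left out, with 0 higher throughout. The fold limit calls more by construction when removed, and for the other changes the cause was not tested. No pairing beyond the batch was used, because the labels give no replicate numbers. The replicate numbers used here follow the order of the libraries. The sequencing batch that mRPE groups share was a term. Groups held 2 to 4 libraries, 1 clone stands for each knockout in culture, and p-values measure the spread between these libraries.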
